A study of Homo sapiens with 4 samples.

Results

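Human chromosome 19 carries large clusters of zinc finger genes, many of them of the KRAB family. A zinc finger is a small fold in which cysteine and histidine side chains hold a zinc ion, and arrays of such fingers let a protein bind a chosen DNA sequence. Many of these proteins also carry a KRAB box, which recruits the co-repressor TRIM28 and through it the histone methyltransferase SETDB1, HP1 proteins and DNA methylation, and the family is best known for silencing retrotransposons. TET1 works on the other side of DNA methylation: it oxidises methylated cytosine.

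The genes described here were chosen by symbol, position and level: a symbol made of ZNF, a number and at most 1 letter, a locus on chromosome 19 (hg19), an Ensembl ID on 1 row, and a mean of at least 1 FPKM over the 4 libraries. FPKM is the number of fragments of a gene scaled to its exon length and to the size of the library. Of 267 rows with such a symbol on chromosome 19, 4 carried an ID that stood on more than 1 row, which left 263, and 175 of these passed the minimum. Of the remaining 88 rows, 36 were listed at 0 in all 4 libraries and 52 lay between 0 and the minimum. The whole table held 62077 rows, of which 15057 had an ID on 1 row and a mean of at least 1 FPKM; these are called all rows tested. The level therefore selected the members, and their mean FPKM is a description. A gene high in only some libraries could pass, as ZNF43 did through the scrambled and ZNF497 through the TET1-si libraries. A large difference in such a gene is a description too. At the minimum, ZNF625 (1.00 FPKM) and ZNF441 (1.02 FPKM) were just inside, and ZNF284 (0.923 FPKM) and ZNF296 (0.879 FPKM) just outside.

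The cells were FADU, an established line derived from a hypopharyngeal squamous cancer. Total RNA of 4 samples was sequenced, and values for all 4 are always given in this order: scrambled normoxia (N-scr), TET1-si normoxia (N-si), scrambled hypoxia (H-scr), TET1-si hypoxia (H-si). Per the methods, both knockdown states were made by infection with lentiviral shRNA vectors, so the controls were infected cells too. Per the labels, hypoxia was 19 h in 1% O2 and 5% CO2. There was 1 library per group, so replicate error is unknown and p-values are not given. A fit of additive effects of oxygen and knockdown, which would leave 1 residual degree of freedom, was not run. Every interval below is a 95% exact counting interval on approximate fragments, and it speaks of these libraries and not of cultures. It is for the log2 ratio of fragments, whereas the changes below add 0.1 to each FPKM. In low genes the interval is therefore not centred on the change printed beside it. The FPKM values gave back depths of 22480000 to 24520000 fragments per library, and a member held a median of 336 to 468 fragments in a library. Fragments of a gene were approximated from its FPKM, the depth and the length of a single reference transcript. Where a gene has transcripts of other lengths, its fragments and the width of its interval depend on that choice. TET1 itself was at 0.129, 0.0493, 0.331 and 0.122 FPKM in the 4 libraries, which is 28, 11, 76 and 26 fragments, and was thus lower in each TET1-si library than in its control.

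The identity of the line was checked against its markers. All 8 epithelial markers were at 42.1 FPKM or more in N-scr and at 54.8 FPKM or more in H-scr, and 7 of 8 in N-si and 8 of 8 in H-si were at 1 FPKM or more. KRT14, a basal keratin, was at 42.1 and 99.9 FPKM in N-scr and H-scr but at 0.487 and 1.41 FPKM in N-si and H-si. KRT5, its partner keratin, was at 2673 and 3993 FPKM in the scrambled libraries and at 524 and 1430 FPKM in the TET1-si libraries. Of the 7 markers of other cell types found on 1 row, CD3E was 0 in all libraries, PTPRC was at most 0.0101 FPKM and at most 2 in a library reached 1 FPKM: COL1A1, a collagen of fibroblasts, in all libraries (5.29, 14.0, 28.6 and 37.0 FPKM) and GFAP in N-si (2.49 FPKM). KRT8, KRT17 and KRT18 were also lower in each TET1-si library than in its control, whereas CDH1 (179, 267, 292 and 399 FPKM) and EPCAM (155, 206, 102 and 163 FPKM) were higher and TP63 was between 42.1 and 54.8 FPKM. The scrambled and TET1-si libraries thus differed in epithelial genes as well, in both oxygen states, and the part of this in the changes described below was not tested. In bulk RNA, fewer cells of a type and less RNA per cell cannot be told apart.

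To show what the regulatory sequence of such genes looks like, the 250 bases before the start of transcription are given for 4 members, those with the lowest (ZNF43, ZNF93) and the highest (ZNF497, ZNF784) TET1-si change among members with an entry in the RefSeq promoter table. The build is GRCh38.p14, positions are 1-based and CG dinucleotides, the sites of DNA methylation, are in capitals. ZNF43 lies on the minus strand at chr19:21836183-21836432, ZNF93 on the plus strand at chr19:19900696-19900945, ZNF497 on the minus strand at chr19:58362752-58363001 and ZNF784 on the minus strand at chr19:55624567-55624816.
ZNF43: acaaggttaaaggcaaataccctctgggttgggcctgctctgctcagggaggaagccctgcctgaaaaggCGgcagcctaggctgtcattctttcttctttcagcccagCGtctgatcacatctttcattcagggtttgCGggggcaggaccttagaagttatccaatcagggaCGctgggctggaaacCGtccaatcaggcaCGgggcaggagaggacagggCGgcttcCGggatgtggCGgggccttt
ZNF93: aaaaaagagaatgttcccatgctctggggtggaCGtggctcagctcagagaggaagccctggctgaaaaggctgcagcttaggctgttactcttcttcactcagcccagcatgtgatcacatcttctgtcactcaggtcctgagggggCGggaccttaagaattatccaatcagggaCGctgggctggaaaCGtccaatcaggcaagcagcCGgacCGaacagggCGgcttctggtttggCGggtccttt
ZNF497: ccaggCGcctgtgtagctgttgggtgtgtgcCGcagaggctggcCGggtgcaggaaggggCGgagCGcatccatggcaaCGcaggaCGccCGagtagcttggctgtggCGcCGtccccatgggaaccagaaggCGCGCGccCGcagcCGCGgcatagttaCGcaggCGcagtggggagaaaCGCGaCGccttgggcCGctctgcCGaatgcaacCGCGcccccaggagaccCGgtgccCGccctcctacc
ZNF784: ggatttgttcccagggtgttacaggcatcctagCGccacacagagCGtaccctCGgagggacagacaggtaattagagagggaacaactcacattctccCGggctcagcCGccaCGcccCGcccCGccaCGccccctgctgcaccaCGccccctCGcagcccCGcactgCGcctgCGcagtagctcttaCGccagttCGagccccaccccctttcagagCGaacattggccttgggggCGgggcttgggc
In these windows ZNF43 held 9 CG and ZNF93 held 8 CG, whereas ZNF497 held 27 CG and ZNF784 held 18 CG. These 4 were chosen by their response, so the difference among them is a description. Over the 154 members with an entry, the number of CG in the 300 bases around the start ranged from 6 to 40 with a median of 20, against a median of 14 over 27305 genes with an entry and of 22 over the 15843 protein-coding ones, and its Spearman correlation with the TET1-si change was -0.03 under hypoxia and -0.07 under normoxia (154 genes of the same libraries, a description).

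A pair of short motifs, ACGTG and TGCGCA, was searched on both strands of the same 300 bases. The motifs can overlap by 2 letters, so that a stretch of letters can count for both. TGCGCA, which is part of the site of the factor NRF1, was present in 29 of 154 members (18.8%), in 8.42% of all 27305 promoters and in 10.8% of the 15843 promoters of protein-coding genes. ACGTG, the core of the hypoxia response element, was present in 30 of 154 members (19.5%), in 21.6% of all promoters and in 23.7% of those of protein-coding genes. Members with ACGTG had a median hypoxia change of -0.20 (log2) in scrambled cells, against -0.26 in TET1-si cells, and the 124 members without it had medians of -9.91e-05 and -0.02. Of the 4 promoters printed above, ACGTG stood in ZNF93 and TGCGCA in ZNF784.

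The members were a low-level group of genes. Their mean FPKM had a median of 4.89, with quartiles of 2.66 and 8.44, against a median of 13.8 over all rows tested and of 7.21 over the 238 rows with the same kind of symbol on other chromosomes. ZNF146, a protein made almost only of fingers (10 in 292 residues), was the highest at 128, 65.2, 67.1 and 33.6 FPKM. Its TET1-si change was -0.98 under normoxia (interval -1.03 to -0.93) and its hypoxia change -0.94 in scrambled cells (interval -0.99 to -0.89), so that each TET1-si library lay below its control and each hypoxic library below its normoxic one. ZNF561 followed at 33.6, 33.4, 35.1 and 40.6 FPKM, and ZNF544 at 31.8, 43.1, 18.7 and 24.8 FPKM. ZNF561 was nearly level over the 4 libraries, and ZNF544 was lower in each hypoxic library and higher in each TET1-si library than in its counterpart.

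The summed FPKM of the 175 genes was 1131, 1309, 1040 and 1283. This sum was 0.137% of the column total in each scrambled library, 0.165% in N-si and 0.177% in H-si. The family as a whole thus took a larger share of the transcriptome in the TET1-si libraries than in the scrambled ones, at either oxygen level. Translations of the reference transcripts were usable for 172 members and held a median of 12 fingers. A KRAB box pattern was found in 118 of them, and 130 matched when the last residue of the pattern could be W or L, a widening chosen after the data were seen.

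The comparison of TET1-si with scrambled cells shows which genes differed between these libraries. The paper lists a single TET1 sequence for its vectors, and whether a difference depends on TET1 was not tested. Change is given as the difference of log2(FPKM + 0.1), and a row is counted when this difference is at least 1, that is, 2-fold. Under hypoxia the members had a median change of 0.37 (quartiles -0.03 and 0.72), against 0.10 over all rows tested. Under normoxia the median was also 0.37 (quartiles -0.02 and 0.73), against 0.15 over all rows. Relative to all rows the members were therefore higher by 0.27 under hypoxia and by 0.22 under normoxia. Across the alternative scalings of the columns the median of all rows moved from 0.10 to as low as -0.03 under hypoxia. Scaling a column shifts all its rows alike, apart from the added 0.1, so the distance of the members is kept by construction. It was 0.26 to 0.27 under hypoxia and 0.21 to 0.22 under normoxia. Other settings can move this distance. Under hypoxia it ranged from 0.17 (members overlapping no tested row) to 0.30 (a minimum of 2 FPKM). Under normoxia it ranged from 0.16 (1 added in place of 0.1) to 0.30 (no filter on level). The 238 ZNF rows on other chromosomes had medians of 0.21 and 0.18, and the 698 other protein-coding rows of chromosome 19 had medians of 0.03 and 0.09. The plot of the distributions shows the members' medians above those of both groups in these contrasts.

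**Figure D1:**
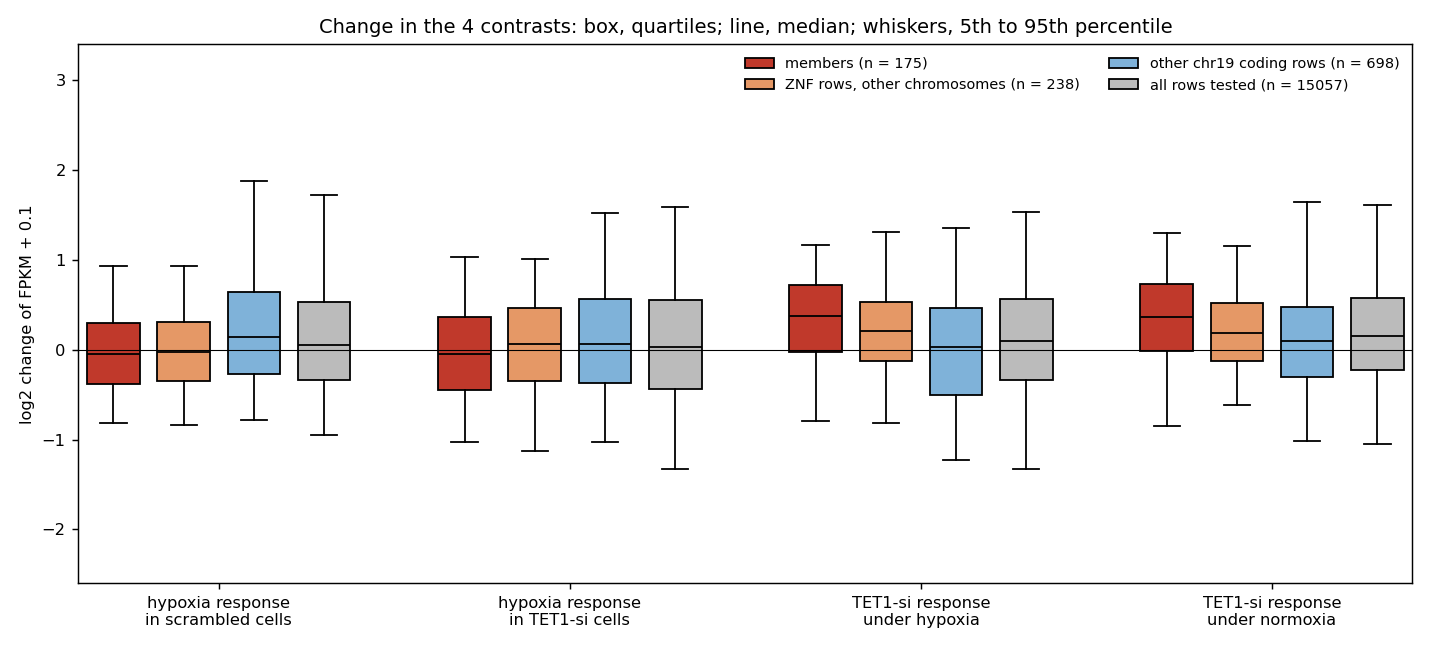
Log2 change of FPKM + 0.1 in the 4 contrasts (x axis) for the 175 members, the 238 ZNF rows on other chromosomes, the 698 other protein-coding rows of chromosome 19 and all 15057 rows tested; boxes are quartiles, lines medians and whiskers the 5th to 95th percentiles over genes. The member medians are 0.37 in both TET1-si contrasts and -0.05 in both hypoxia contrasts.

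Under hypoxia 22 members were at least 2-fold higher in TET1-si (12.6% of 175, with 12% of all rows called) and 6 were at least 2-fold lower (3.43%, with 8.35% of all rows). Under normoxia 23 were at least 2-fold higher (13.1%, with 12.1% of all rows) and 4 were at least 2-fold lower (2.29%, with 5.56% of all rows). The shares of 2-fold higher members were thus near those of all rows. They were somewhat above those of the 11907 protein-coding rows tested (9.80% under hypoxia and 10.3% under normoxia). On other chromosomes 10.1% and 7.56% of the ZNF rows were at least 2-fold higher. At least 2-fold lower were 2.52% and 0.84% of those ZNF rows, below the shares of the members. Low shares of lowered genes were thus not particular to the members. Of the protein-coding rows, 7.89% and 4.54% were at least 2-fold lower. Above 0 at any size were 127 members under hypoxia (72.6%, with 56.5% of all rows and 65.1% of the ZNF rows on other chromosomes) and 128 under normoxia (73.1%, with 60.3% and 63.4%). The balance of 2-fold calls depended on scaling. With median-of-ratios scaling, 12 members were higher and 9 lower under hypoxia (57.1% of calls higher in place of 78.6%), and 15 were higher and 10 lower under normoxia (60.0% in place of 85.2%). With upper-quartile scaling 17 were higher and 9 lower under normoxia (65.4%). With the columns as deposited, all rows held 1807 higher and 1258 lower under hypoxia, and 1828 and 837 under normoxia. Calls over all rows were not counted under the other scalings, so the members' balance there has no background beside it.

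The hypoxic and the normoxic pair of libraries have no library in common. In these, 110 members (62.9%) were higher in TET1-si at both oxygen levels and 30 (17.1%) were lower in both. Over all rows 46.2% were higher and 28.7% lower in both. Of the 238 ZNF rows on other chromosomes, 50.8% were higher and 21.8% lower in both. Those ZNF rows thus lay between all rows and the members. The other 35 members went opposite ways, a smaller share than the 23.7% of all rows. Counting intervals lay above 0 in both pairs for 79 of 174 members (45.4%, with 34.7% of the 14105 rows with intervals) and below 0 in both for 20 (11.5%, with 20.7%). These shares also move with the number of fragments, and the members are low-level genes. At least 2-fold higher in both were 10 members (5.71%, with 6.51% of all rows), and at least 2-fold lower in both were ZNF43 and ZNF114 (1.14%, with 3.06% of all rows). Over the 175 members the changes in the 2 oxygen states had a Pearson correlation of 0.75 and a Spearman correlation of 0.58, as a description. The same values were 0.32 and 0.65 over all rows, and 0.72 and 0.70 over the protein-coding rows. Over the ZNF rows on other chromosomes they were 0.68 and 0.61. By rank the members were thus below all 3 groups.

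**Figure D2:**
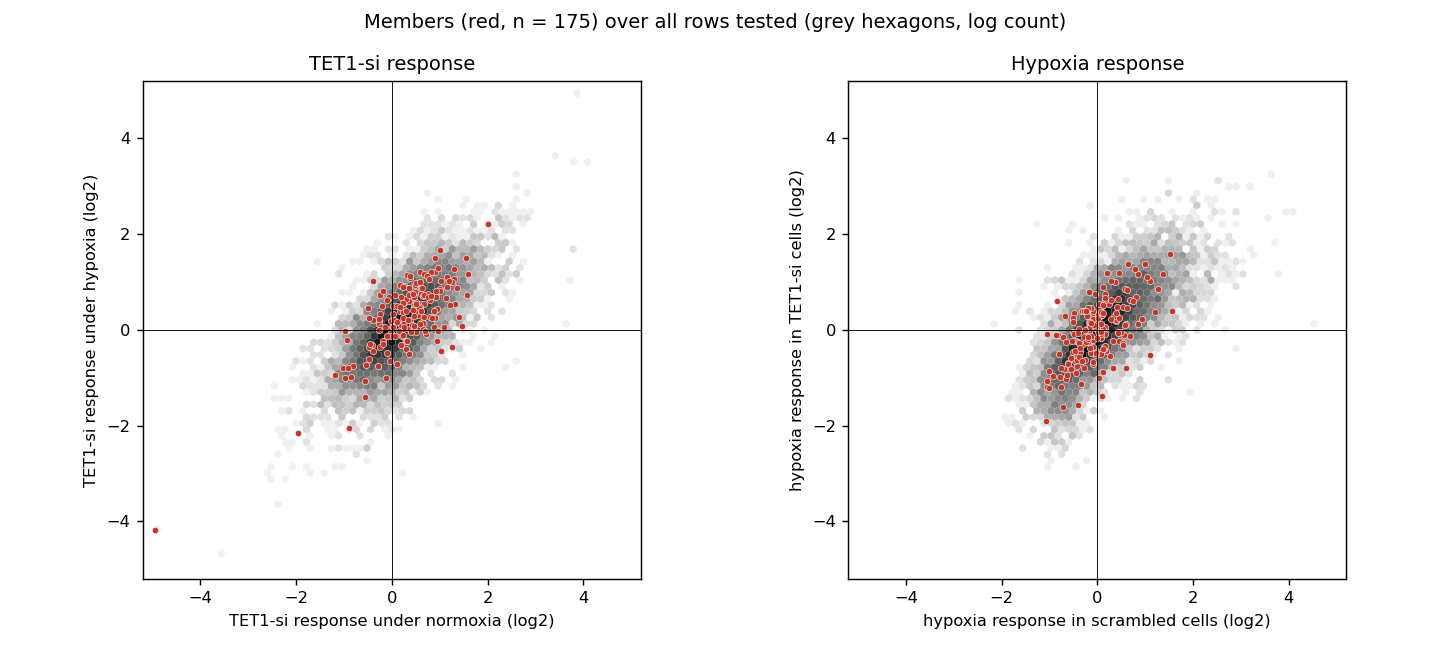
Log2 change in one state against the change in the other, for TET1-si (left, normoxia on the x axis and hypoxia on the y axis) and for hypoxia (right, scrambled on the x axis and TET1-si on the y axis), with the 175 members as red points over all rows within the axes as grey hexagons shaded by log count. In the left panel 110 members lie above 0 on both axes and 30 below 0 on both, with ZNF43 alone near -4.94 and -4.18.

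Whether members with a KRAB box differed from the others depended on the pattern used. The 118 members with the strict pattern had median changes of 0.36 under hypoxia and 0.43 under normoxia, and the 54 members without it had medians of 0.39 and 0.28. Higher in both oxygen states were 74 of the 118 (62.7%) and 34 of the 54 (63.0%). With the widened pattern, the 130 members that match had medians of 0.41 and 0.45 and 85 (65.4%) were higher in both states, and the 42 others had medians of 0.20 and 0.20 and 23 (54.8%) were higher in both. The 12 members that match the widened pattern alone, among them ZNF224, ZNF226 and ZNF227, all lie in the block from ZNF575 to ZNF296 described below, and 11 of the 12 were higher in both. Number of fingers, transcript length, level and the share of sequence in common with other genes each had a Spearman correlation between -0.10 and 0.08 with the TET1-si changes over 172 to 175 members, as a description.

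ZNF43, a KRAB zinc finger gene with 19 fingers at chr19:21987752-22034927 on the minus strand (hg19), was the member that differed most. It passed the minimum through the scrambled libraries alone. It was at 3.21 FPKM in N-scr and 1.71 FPKM in H-scr, with 196 and 112 fragments. In N-si it was at 0.00757 FPKM, where the approximate fragments were under 1 and were rounded to 0, and in H-si it was at 0 FPKM. Against a floor of 3 fragments per library, ZNF43 was at least 69.7-fold lower in N-si than in N-scr and at least 34.2-fold lower in H-si than in H-scr. No 100-base stretch of its transcript occurred in another gene and no other tested row overlapped its locus. The nearest members on each side did not share this, and rows under the minimum were not compared. ZNF100, the member before it, was at 3.64, 6.93, 5.38 and 6.39 FPKM. ZNF724P, the next member after it at chr19:23404401-23433192, was at 2.43, 3.28, 1.54 and 1.66 FPKM. Of the 100-base stretches of ZNF724P, 51.5% are found in other genes.

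ZNF114, with 3 fingers and a KRAB box at chr19:48675575-48790865 on the plus strand, was at 2.48, 0.558, 6.53 and 1.39 FPKM. It was higher in each hypoxic library than in its normoxic counterpart and lower in each TET1-si library than in its control, by 4.45-fold under normoxia and 4.71-fold under hypoxia. The change was -1.97 under normoxia (interval -2.78 to -1.59) and -2.16 under hypoxia (interval -2.63 to -1.87), and 2 other tested rows overlap its locus. ZNF114 was the single member at least 2-fold changed in all 4 contrasts.

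ZNF93, which binds and silences LINE retrotransposons, was at 7.59, 4.03, 5.68 and 1.29 FPKM. Both TET1-si libraries lay below both scrambled ones, by 1.88-fold under normoxia and 4.41-fold under hypoxia. ZNF253, the member just before it on the chromosome, was at 6.85, 7.99, 6.22 and 5.72 FPKM and did not follow it. ZNF177 was at 2.52, 1.06, 2.44 and 1.22 FPKM, but 93.3% of its 100-base stretches also occur in the read-through gene ZNF559-ZNF177, so its value cannot be assigned to it alone.

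Among the genes higher in TET1-si, ZNF497, a gene of 14 fingers without the KRAB pattern at chr19:58865723-58874214 on the minus strand, had the largest mean change. It was at 0.461, 2.14, 0.657 and 3.41 FPKM, with 34 fragments in N-scr, and passed the minimum through the TET1-si libraries. It was 4.65-fold higher in N-si than in N-scr and 5.18-fold higher in H-si than in H-scr. ZNF784, with 6 fingers and no KRAB pattern, was at 1.83, 5.56, 2.44 and 7.09 FPKM. ZNF160, with 20 fingers and a KRAB box, was at 2.04, 6.34, 5.07 and 11.5 FPKM. In all 3 the TET1-si library was above its control at both oxygen levels and hypoxia was higher than normoxia. In scrambled cells the intervals of the hypoxia change hold 0 for ZNF497 and ZNF784.

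ZNF606 was at 4.47, 9.13, 3.77 and 12.1 FPKM, and ZNF814 at 3.16, 7.92, 2.45 and 6.03 FPKM. Both carry a KRAB box and both TET1-si libraries lay above both scrambled ones. ZNF274 and ZNF91 are outside the rule for named genes and were chosen after their values were seen. ZNF274, which brings SETDB1 to the ends of zinc finger genes, was at 11.5, 26.4, 11.5 and 23.3 FPKM, a change of 1.19 under normoxia and 1.02 under hypoxia. ZNF91, which silences SVA retrotransposons, was at 12.5, 17.4, 11.8 and 22.8 FPKM, a change of 0.48 under normoxia and 0.94 under hypoxia. In ZNF274 and ZNF91 the hypoxia change of scrambled cells was -0.0044 and -0.08 with intervals that hold 0, and both TET1-si libraries lay above both controls.

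**Figure D3:**
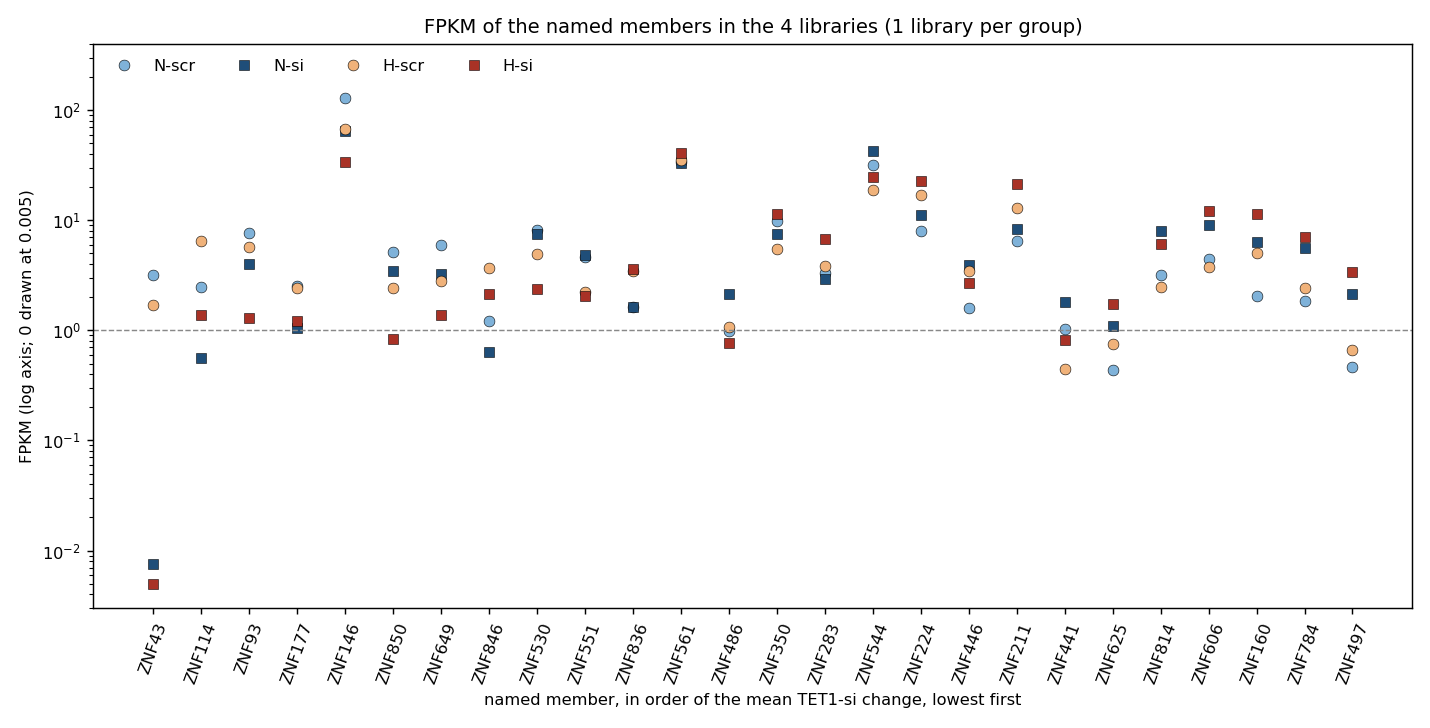
FPKM (log axis, 0 drawn at the lower edge) of the 26 named members in the 4 libraries, 1 point per library, ordered by mean TET1-si change with the lowest at the left; circles are scrambled and squares TET1-si, blue shades normoxia, orange and dark red hypoxia, and the dashed line is 1 FPKM. ZNF43 is at 3.21 and 1.71 FPKM in the scrambled libraries against 0.00757 and 0 in the TET1-si libraries, and ZNF497 is at 2.14 and 3.41 FPKM in TET1-si against 0.461 and 0.657 FPKM.

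Position along the chromosome was examined by cutting the 263 rows wherever the starts of consecutive rows were more than 1 Mb apart. This gave 17 blocks, of which 9 held at least 3 members and 167 of the 175 members. Medians of 8 of these 9 blocks were above 0 in both TET1-si contrasts. They were also above the medians of all rows tested, 0.10 under hypoxia and 0.15 under normoxia. Under hypoxia the blocks from ZNF554 to ZNF77 (0.11) and from ZNF101 to ZNF254 (0.15) were close to all rows. The median from ZNF554 to ZNF77 fell to -0.023 under hypoxia with median-of-ratios scaling. That from ZNF653 to ZNF791 fell to -0.016 with no filter on level and that from ZNF807 to ZNF792 to -0.074 with KRAB members alone. The exception was the block from ZNF557 to ZNF846 (chr19:7069455-9903856, 13 members), with medians of -0.09 under hypoxia (0.094 at a minimum of 2 FPKM and 0.048 with KRAB members alone) and -0.39 under normoxia, and 6 members lower against 2 higher in both oxygen states. ZNF177, ZNF317, ZNF266, ZNF426, ZNF562 and ZNF846 were those 6. Of the genes given with values in this and the next paragraphs on position, ZNF426, ZNF562, ZNF226, ZNF227, ZNF428 and ZNF675 are outside the rule for named genes and were chosen after their values were seen. ZNF846 was at 1.21, 0.640, 3.67 and 2.14 FPKM, ZNF426 at 6.93, 4.75, 5.12 and 3.05 FPKM and ZNF562 at 15.8, 11.3, 14.1 and 9.26 FPKM. The 28 other protein-coding rows within this block had medians of -0.01 and -0.11, below the 0.10 and 0.15 of all rows tested. Of these 28 rows, 14 were above 0 under hypoxia and 10 under normoxia, and of the 13 members 6 and 3 were. Over all rows tested 28.7% were lower and 46.2% higher in both oxygen states.

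The block from ZNF575 to ZNF296 (chr19:44029649-45579846, 16 members) had medians of 0.57 and 0.55. All 16 of its members were higher in H-si than in H-scr and 13 of 16 were higher in N-si than in N-scr, the exceptions being ZNF576, ZNF283 and ZNF45 with changes of -0.23, -0.18 and -0.15 under normoxia. ZNF226 was at 11.1, 20.8, 10.1 and 28.8 FPKM, ZNF227 at 4.94, 7.90, 5.10 and 11.5 FPKM and ZNF428 at 9.07, 23.5, 12.3 and 22.8 FPKM. In each of them both TET1-si libraries lay above both scrambled ones. In this block 1 member matched the strict KRAB pattern and 13 the widened one. Its 19 other protein-coding rows had medians of 0.26 and 0.51, and 11 and 16 of the 19 were above 0. Over all rows tested 56.5% were above 0 under hypoxia and 60.3% under normoxia.

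The largest block, from ZNF628 to ZNF446 near the end of the long arm (chr19:55987699-58992597, 46 members), had medians of 0.56 and 0.32, with 35 members higher and 4 lower in both oxygen states. Over all rows tested 46.2% were higher and 28.7% lower in both. Here the 14 other protein-coding rows had medians of 0.40 and 0.41, and 12 and 11 of the 14 were above 0. The block from ZNF175 to ZNF331 (chr19:52074551-54083523, 30 members) had medians of 0.28 and 0.37, and its 4 other protein-coding rows medians of 0.60 and 0.42. That from ZNF565 to ZNF573 (chr19:36673188-38307940, 21 members) had medians of 0.47 and 0.47, whereas its 4 other protein-coding rows had medians of -0.82 and -0.43. The block from ZNF101 to ZNF254 (chr19:19779605-24312654, 20 members, all with the KRAB pattern) had medians of 0.15 and 0.54, and it held ZNF43 and ZNF93 as well as ZNF675, which was at 13.1, 24.8, 14.5 and 23.5 FPKM. The block from ZNF653 to ZNF791 (chr19:11594242-12750912, 13 members) had medians of 0.47 and 0.51, and its 3 other protein-coding rows medians of 0.12 and 0.11. Over all 9 blocks the 72 other protein-coding rows had medians of 0.17 under hypoxia and 0.25 under normoxia. Adjacent members of a block differed by a median of 0.49 under hypoxia and 0.46 under normoxia, against 0.58 and 0.58 over all pairs of members.

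**Figure D4:**
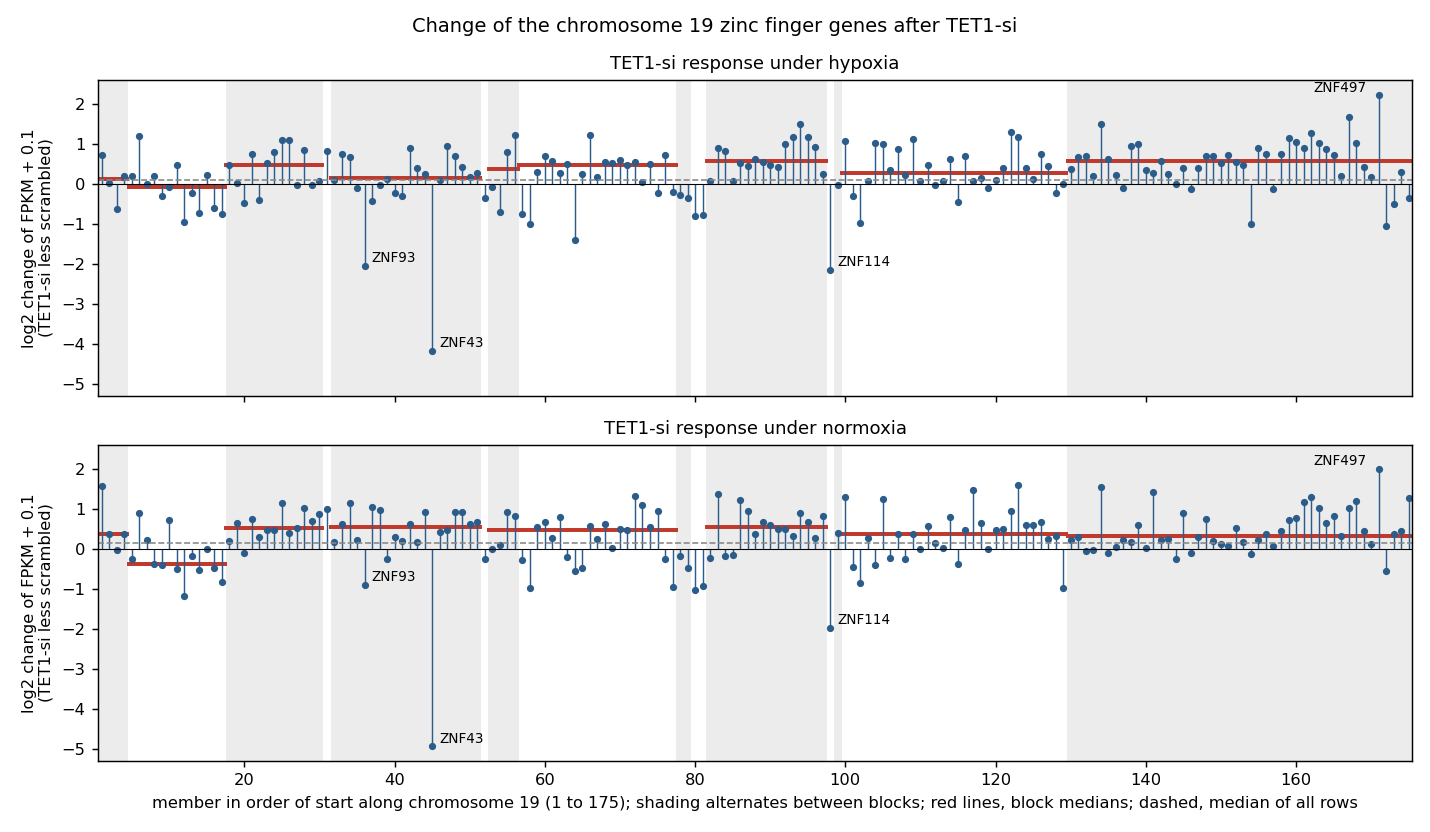
Log2 change of FPKM + 0.1 in TET1-si against scrambled cells for the 175 members in order of start along chromosome 19, under hypoxia (top) and normoxia (bottom); shading alternates between blocks that hold members, red lines are medians of blocks with at least 3 members and the dashed line is the median of all rows tested. The block from ZNF557 to ZNF846 is the one with medians below 0 (-0.09 and -0.39, the former 0.094 at a minimum of 2 FPKM and 0.048 with KRAB members alone), and single members such as ZNF43, ZNF93 and ZNF114 lie far from their neighbours.

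The comparison of hypoxia with normoxia likewise sets single libraries side by side. The members had a median change of -0.05 in each knockdown state, against 0.05 and 0.03 over all rows, and 82 of 175 (46.9%) were above 0 in scrambled as in TET1-si cells, with 52.9% and 51.5% of all rows. The sign of these medians depended on scaling, with 0.07 and 0.08 after rescaling to TPM. The member median less that of all rows is kept by scaling, by construction. It was -0.10 to -0.09 for scrambled cells and -0.09 to -0.08 for TET1-si cells. Over the other settings it ranged from -0.13 to -0.05 for scrambled cells and from -0.14 to -0.05 for TET1-si cells. At least 2-fold higher were 8 members in scrambled cells (4.57%, with 12.9% of all rows) and 12 in TET1-si cells (6.86%, with 12.5%). At least 2-fold lower were 6 members in scrambled cells (3.43%, with 4.53% of all rows) and 11 in TET1-si cells (6.29%, with 8.66%). The family thus held fewer 2-fold higher genes than all rows in both knockdown states, and fewer than the protein-coding rows tested (11.1% and 9.94%). The ZNF rows on other chromosomes were alike in this, with 3.78% and 5.88% at least 2-fold higher, while 16.5% and 13.2% of the other protein-coding rows of chromosome 19 were. Median-of-ratios scaling gave 5 higher and 7 lower members in scrambled cells (41.7% of calls higher in place of 57.1%) and 9 higher and 14 lower in TET1-si cells (39.1% in place of 52.2%), and rescaling to TPM gave 10 higher and 0 lower in scrambled cells.

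In both knockdown states 4 members were at least 2-fold higher under hypoxia (2.29%, with 6.73% of all rows): ZNF846, ZNF224, ZNF114 and ZNF836. ZNF224, a repressor of the glycolytic aldolase A gene, was at 7.98 and 17.2 FPKM in scrambled cells (normoxia, then hypoxia) and at 11.2 and 22.9 FPKM in TET1-si cells, that is 2.15-fold and 2.04-fold higher under hypoxia. ZNF846 was 3.04-fold and 3.34-fold higher. ZNF836 was at 1.64 and 3.46 FPKM in scrambled and at 1.65 and 3.64 FPKM in TET1-si cells, and its TET1-si changes were 0.01 and 0.07 with intervals that hold 0. ZNF211 was at 6.44 and 12.9 FPKM in scrambled and at 8.29 and 21.6 FPKM in TET1-si cells, a change of 0.99 and 1.37.

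Also 4 members were at least 2-fold lower under hypoxia in both knockdown states (2.29%, with 2.34% of all rows): ZNF441, ZNF850, ZNF649 and ZNF551. ZNF850, with 29 fingers, was at 5.14 and 2.41 FPKM in scrambled cells (normoxia, then hypoxia) and at 3.45 and 0.843 FPKM in TET1-si cells, so that H-si was the lowest of the 4. ZNF649 was at 5.98 and 2.82 FPKM in scrambled and at 3.28 and 1.37 FPKM in TET1-si cells. ZNF551 was at 4.62 and 2.24 FPKM in scrambled and at 4.84 and 2.04 FPKM in TET1-si cells. ZNF441 was at 1.03 and 0.444 FPKM in scrambled and at 1.81 and 0.817 FPKM in TET1-si cells, which is 100, 46, 188 and 78 fragments. ZNF530, with changes of -0.72 and -1.61, was at 8.20 and 4.94 FPKM in scrambled and at 7.52 and 2.39 FPKM in TET1-si cells.

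The hypoxia responses of scrambled and TET1-si cells, which also have no library in common, were opposite in 54 of 175 members (30.9%, with 22.1% of all rows), and 55 were higher (31.4%, with 40.8%) and 66 lower in both (37.7%, with 35.7%). With both counting intervals off 0, the hypoxia response was opposite in 14 of 173 members (8.09%, with 7.79% of all rows) and the TET1-si response in 13 of 174 (7.47%, with 9.27% of all rows), shares near the background. The difference of the 2 responses was highest in ZNF350 and ZNF283 and lowest in ZNF446 and ZNF486. ZNF350, also called ZBRK1, a partner of BRCA1, was at 9.89 and 5.50 FPKM in scrambled cells (normoxia, then hypoxia) and at 7.46 and 11.3 FPKM in TET1-si cells. Its hypoxia change was thus -0.84 (interval -1.06 to -0.63) in scrambled cells and 0.59 (interval 0.41 to 0.79) in TET1-si cells. ZNF283 was at 3.32 and 3.85 FPKM in scrambled and at 2.92 and 6.83 FPKM in TET1-si cells. ZNF446 was at 1.58 and 3.49 FPKM in scrambled and at 3.95 and 2.71 FPKM in TET1-si cells, so the order of normoxia and hypoxia was turned. ZNF486 was at 0.996 and 1.07 FPKM in scrambled and at 2.15 and 0.764 FPKM in TET1-si cells.

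The genes through which KRAB proteins silence their targets were taken as a list of 23, all on 1 row and all above 1 FPKM. In TET1-si cells 1 of 23 was at least 2-fold higher (4.35%, with 12% of all rows) and 2 were at least 2-fold lower (8.70%, with 8.35%) under hypoxia. Under normoxia 0 of 23 passed in either direction, with 12.1% higher and 5.56% lower over all rows. The list had medians of -0.06 under hypoxia and 0.10 under normoxia, that is -0.16 and -0.05 less the medians of all rows, below those of the members. TRIM28, the co-repressor that the KRAB box binds, was at 339, 353, 267 and 206 FPKM. It was nearly level under normoxia and lowest in H-si.

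SETDB1, the methyltransferase that TRIM28 brings in, was at 27.8, 51.0, 33.7 and 55.8 FPKM, and its cofactor ATF7IP at 9.19, 17.0, 10.5 and 12.8 FPKM. MPHOSPH8 was at 15.9, 28.4, 19.1 and 35.3 FPKM and FAM208A at 17.1, 33.9, 17.5 and 26.6 FPKM, both subunits of the HUSH silencing complex, while PPHLN1, another subunit, was at 54.6, 37.6, 58.5 and 31.0 FPKM. In SETDB1, ATF7IP, MPHOSPH8 and FAM208A both TET1-si libraries lay above both scrambled ones, and in PPHLN1 both lay below. CBX3, an HP1 protein, was at 266, 174, 176 and 107 FPKM and was lower in each TET1-si library. DNMT1, which keeps up DNA methylation after replication, was at 331, 229.8, 238 and 78.0 FPKM, and UHRF1, which guides it, at 56.5, 61.6, 34.7 and 12.4 FPKM. Both were lowest in H-si, with changes of -1.61 and -1.48 under hypoxia. CHD3, a remodeller of the NuRD complex, was at 149.5, 161, 153 and 399 FPKM and was the one gene of the list at least 2-fold higher.

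**Figure D5:**
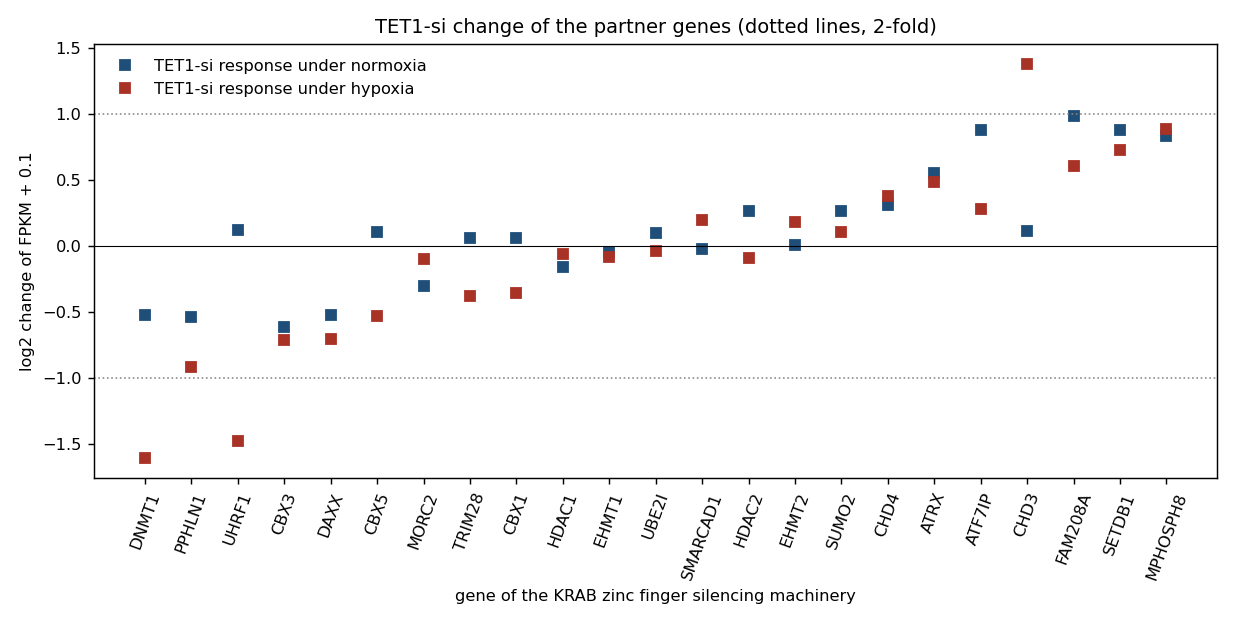
Log2 change of FPKM + 0.1 in TET1-si against scrambled cells for the 23 genes of the KRAB silencing machinery, under normoxia (blue) and hypoxia (red), ordered by the mean of both; dotted lines mark 2-fold. DNMT1 (-1.61) and UHRF1 (-1.48) lie below and CHD3 (1.38) above these lines under hypoxia, and no gene passes them under normoxia.

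Several member values stand for reads that could belong to more than 1 gene. Whether counting used strand is not given in the sources used here, and 78 members overlap another tested row. At least 50% of the 100-base stretches of 8 members occur in another gene, among them both rows named ZNF223 and ZNF625, whose ID the later annotation gives to a read-through gene, and 94 members share none. The 114 members that share under 1% of their stretches had medians of 0.29 under hypoxia and 0.36 under normoxia after TET1-si, and the 97 that overlap no tested row had medians of 0.27 and 0.36.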

How the data were processed

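Total RNA of 4 FADU cultures was made into TruSeq libraries and sequenced on a HiSeq2000. Per the labels and the methods, the authors aligned the reads to hg19 with TopHat and summarised them with Cufflinks on Ensembl genes, and deposited FPKM values. The labels give 100 bp single-end and the methods paired-end reads, and versions are not given in the sources used here.

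Columns were used as deposited. IDs on more than 1 row (111 IDs, 232 rows) were left out. Change was the difference of log2(FPKM + 0.1) between 2 libraries, counted at 2-fold. Depth was recovered from 6332 single-exon rows, of whose low values 97.1% to 97.4% were whole fragments within 0.05 after taking 213 or 214 bases off each length. Approximate fragments per gene, from the length of a single GENCODE transcript each, gave Clopper-Pearson intervals.

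The members and gene lists were chosen with earlier results of these data known. Named genes were the 3 highest by mean FPKM, the 5 highest and 5 lowest by mean hypoxia and by mean TET1-si change among members changed the same way in both states, the 2 highest and 2 lowest differences of hypoxia responses, the 2 nearest rows on each side of the minimum, TET1 and the silencing list. Proteins were translated from GENCODE 44 transcripts lifted to hg19, since RefSeq proteins were not used here. The finger pattern was C, 2 to 4 residues, C, 12 residues, H, 3 to 5 residues, H. Promoters were RefSeq's, 250 bases before to 50 after the first listed start, and 154 members matched by symbol. Python 3.11.15, pandas 2.3.3, numpy 2.4.6 and scipy 1.17.1 were used. Other pseudocounts, scalings, level minimums and subsets were tried.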

Additional observations from a re-analysis of the deposited data

Results flagged for a closer look

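The genes below are named because their response went opposite ways in the 2 states of the other factor and both 95% counting intervals lay off 0. The difference itself was not tested, since there was 1 library per group, and the intervals cover counting error only. Values are log2 changes.

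The hypoxia response was opposite in scrambled and TET1-si cells in 14 of 173 members (8.09%, with 7.79% of all rows with intervals). Of these, 5 were higher under hypoxia in scrambled cells and lower in TET1-si cells. ZNF440 had 0.46 in scrambled against -0.24 in TET1-si cells. ZNF791 had 0.54 in scrambled against -0.28 in TET1-si cells. ZNF611 had 0.60 in scrambled against -0.80 in TET1-si cells. ZNF460 had 0.33 in scrambled against -0.80 in TET1-si cells. ZNF446 had 1.09 in scrambled against -0.53 in TET1-si cells. The other 9 were lower in scrambled cells and higher in TET1-si cells. ZNF559 had -0.17 in scrambled against 0.79 in TET1-si cells. ZNF567 had -0.33 in scrambled against 0.39 in TET1-si cells. ZNF234 had -0.49 in scrambled against 0.36 in TET1-si cells. ZNF350 had -0.84 in scrambled against 0.59 in TET1-si cells. ZNF432 had -0.22 in scrambled against 0.28 in TET1-si cells. ZNF616 had -0.51 in scrambled against 0.24 in TET1-si cells. ZNF331 had -0.69 in scrambled against 0.29 in TET1-si cells. ZNF134 had -0.27 in scrambled against 0.40 in TET1-si cells. ZNF606 had -0.24 in scrambled against 0.41 in TET1-si cells. ZNF331 is an imprinted gene and ZNF350 encodes the BRCA1 partner ZBRK1.

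The TET1-si response was opposite under hypoxia and normoxia in 13 of 174 members (7.47%, with 9.27% of all rows with intervals). Of these, 8 were higher in TET1-si under hypoxia and lower under normoxia. ZNF558 had 0.20 under hypoxia against -0.39 under normoxia. ZNF559 had 0.46 under hypoxia against -0.51 under normoxia. ZNF431 had 0.13 under hypoxia against -0.26 under normoxia. ZNF790 had 0.25 under hypoxia against -0.49 under normoxia. ZNF607 had 0.73 under hypoxia against -0.24 under normoxia. ZNF350 had 1.03 under hypoxia against -0.40 under normoxia. ZNF614 had 0.34 under hypoxia against -0.24 under normoxia. ZNF841 had 0.22 under hypoxia against -0.26 under normoxia. The other 5 were lower under hypoxia and higher under normoxia. ZNF440 had -0.40 under hypoxia against 0.30 under normoxia. ZNF486 had -0.44 under hypoxia against 1.03 under normoxia. ZNF738 had -0.32 under hypoxia against 0.20 under normoxia. ZNF813 had -0.24 under hypoxia against 0.32 under normoxia. ZNF446 had -0.35 under hypoxia against 1.27 under normoxia. ZNF559, ZNF440, ZNF350 and ZNF446, 4 genes, are in both groups, which are built from the same 4 libraries.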

How the results depend on the processing

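All 4 member medians moved by less than the median half-width of a member's counting interval (0.20 to 0.23, by contrast) under each of the 11 alternatives. That half-width is for a single gene, so it is a wide limit for a median of many genes. Within it the TET1-si median under normoxia went from 0.37 to 0.20 with median-of-ratios scaling. Both hypoxia medians changed sign after TPM rescaling. The 2-fold counts moved more, 32 of 88 by over 1.5 times. With a pseudocount of 1 the counts of members higher and lower were 3 and 0 for hypoxia in scrambled cells, 2 and 3 for hypoxia in TET1-si cells, 8 and 3 for TET1-si under hypoxia and 12 and 2 for TET1-si under normoxia. By construction a larger pseudocount shrinks changes of low genes. Median-of-ratios scaling gave 5 higher for hypoxia in scrambled cells, 12 higher for TET1-si under hypoxia, and 15 higher and 10 lower under normoxia. TPM rescaling gave 0 lower for hypoxia in scrambled cells, and upper-quartile scaling 9 lower for TET1-si under normoxia. With no filter on level (227 rows) there were 16 higher for hypoxia in scrambled cells and 13 and 9 lower for TET1-si under hypoxia and normoxia. At a mean of at least 2 FPKM (152 members) there were 7 lower for hypoxia in TET1-si cells and 2 lower for TET1-si under normoxia. With the 118 KRAB members alone there were 7 higher for hypoxia in TET1-si cells, 13 higher for TET1-si under hypoxia and 2 lower under normoxia. Fewer or more genes were counted in these subsets. Calls over all rows were not counted under the other pseudocounts, scalings and minimums, so these counts have no background share beside them.

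A further 2 subsets were added after seeing the data. The 114 members with under 1% shared sequence gave 6 higher for hypoxia in TET1-si cells and 14 higher for TET1-si under hypoxia. The 97 members without an overlapping row gave 5 higher and 1 lower for hypoxia in scrambled cells, 5 and 5 for hypoxia in TET1-si cells, 12 and 3 for TET1-si under hypoxia, and 13 and 1 under normoxia.

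Of the block medians, the TET1-si response under hypoxia changed sign in 4 blocks, from 0.47 to -0.016 from ZNF653 to ZNF791 with no filter and from 0.37 to -0.074 from ZNF807 to ZNF792 with KRAB members alone, where normoxia gave 0.11, from -0.09 to 0.094 from ZNF557 to ZNF846 at 2 FPKM and 0.048 with KRAB members alone, and from 0.11 to -0.023 from ZNF554 to ZNF77 with median-of-ratios scaling. The causes were not tested. The block from ZNF557 to ZNF846 moved to -0.27 under hypoxia without overlaps and to -0.56 under normoxia with median-of-ratios scaling, and its hypoxia response in TET1-si cells to 0.11 without overlaps. The block from ZNF101 to ZNF254 had -0.11 for hypoxia in TET1-si cells with no filter. With little shared sequence, ZNF653 to ZNF791 had 0.021 and ZNF575 to ZNF296 had 0.88 for TET1-si under hypoxia, and ZNF175 to ZNF331 had -0.37 for hypoxia in scrambled cells. Without overlaps, ZNF565 to ZNF573 had 0.49 for hypoxia in scrambled cells, and for hypoxia in TET1-si cells ZNF575 to ZNF296 had 0.00519. Of the values of named genes under other pseudocounts and scalings, 460 stayed within their counting interval's half-width, 60 moved further and 0 whose interval lay off 0 turned.

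No paired analysis was possible because the groups share fewer than 2 replicate numbers, each holding 1 library, and no library was left out for the same reason. A fit that takes the oxygen states as 2 blocks, with 1 residual degree of freedom, was not run. Knockdown and culture cannot be told apart here.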
